A study of Rattus norvegicus with 24 samples.

Results

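Left ventricles of Dahl salt-sensitive rats that were never fed a high salt diet were compared between 3 and 15 weeks, to describe how the heart of this strain grows and matures without salt. The arrays were chosen by their labels: the 3 control arrays of 15 weeks and every distinct array of 3 weeks from rats fed without salt, which came to 7 of the 22 distinct arrays. All rats were of the Dahl salt-sensitive strain, arrived at 5 weeks of age and entered the study groups at 6 weeks of age. The labels do not say from when the weeks in the array names were counted, nor the sex of the rats or the time of day at which hearts were taken. The 3 weeks cannot be an age, because the rats arrived at 5 weeks and treatments began at 6 weeks of age. Below, the word age stands for these labelled times.

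The 3-week group held 3 control arrays, from sedentary rats on normal chow, and 1 array from a rat of the exercise group, which ran daily on a treadmill. The other 2 exercise columns of 3 weeks repeated control columns 2 and 3 in every value and were left out, so those 2 arrays carry both labels and may come from sedentary or exercised rats. The 15-week group held 3 sedentary control arrays. The high salt arrays used for comparison, 3 at 3 weeks and 3 at 15 weeks, came from rats fed a diet with 6% NaCl from 6 weeks of age, which in this strain leads to hypertension and cardiac hypertrophy. Nothing in the labels says whether an array held the RNA of 1 heart or of several, so p-values measure the spread between these arrays.

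Each value is the deposited intensity of a probe set, a group of short probes for 1 transcript, on a linear scale. Changes are on the log2(intensity + 40) scale, 15 weeks minus 3 weeks, with the standard error of limma's fit, and a probe set was called at a Benjamini-Hochberg adjusted p under 0.05 over the 6555 probe sets tested. A gene with several probe sets is given by its brightest one unless another is named. Levels of different probe sets cannot be set against each other. In bulk tissue, fewer cells of a type and less RNA per cell cannot be told apart.

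By the weeks sampled here the rat ventricle has passed the burst of myocyte division and the exchange of fetal for adult contractile proteins that follow birth. Later growth is mainly by enlargement of existing myocytes, with blood vessels, connective tissue and energy metabolism growing alongside. The ventricle also keeps daily time: CLOCK and BMAL1 drive genes with E-boxes in their promoters, among them the Per genes and Nr1d1, while DBP, TEF and HLF act through D-boxes and NR1D1 represses Bmal1.

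The tissue label was checked first. Myl2, the ventricular regulatory myosin light chain, measured between 30892 and 35861 at 3 weeks and between 38024 and 57254 at 15 weeks. Of the atrial markers, Myl7 measured between 271 and 366 at 3 weeks and between 309 and 474 at 15 weeks. Tnni2, a troponin of fast skeletal muscle, measured at most 13.6 and 21.4. Other markers of these lists had high values. Pam of the atrial list measured 9034 to 11819 and then 12055 to 12286. Of the skeletal list, Ckm measured 20183 to 22583 and then 19730 to 24214, and Myh3 450 to 1060 and then 611 to 986. As levels of different probe sets cannot be compared, these values do not measure how much atrial or skeletal tissue was present.

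Between the 2 ages 1 probe set was called. It reports Nr1d1, which encodes the nuclear receptor REV-ERB alpha of the circadian clock, and it rose. That is 0.0153% of the 6555 probe sets tested for the higher direction and 0% for the lower. At an unadjusted p under 0.05 there were 512 probe sets, 7.81% of those tested, of which 190 were higher and 322 lower at 15 weeks. The median change over all probe sets was 0.01 and the median standard error 0.24. The 95% interval of the change lay within 1 log2 unit of 0 on either side for 5540 probe sets, 84.52% of them, and 50 probe sets had an estimate beyond 1. Without the 15-week control array 1 the count of calls was 50 in place of 1, with 45 lower (0.686% of those tested) and 5 higher (0.0763%), and the genes concerned are described further on.

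Nr1d1 measured 640, 325, 799 and 502 in the 3-week arrays (controls 1 to 3, then the exercise array) and 2485, 2044 and 1956 in the 15-week arrays. The groups did not overlap, and every late array was more intense than every early one. The change was 1.92 ± 0.28 (limma, adjusted p = 0.00312), with a 95% interval from 1.35 to 2.49. A second probe set of Nr1d1 measured between 212 and 680 at 3 weeks and between 1146 and 1498 at 15 weeks, a change of 1.55 ± 0.32 (limma, adjusted p = 0.101) that was not called in the same fit. At 6 weeks the 3 control arrays measured 1159, 412 and 641 and the 3 exercise arrays 341, 215 and 301, so the values at 6 weeks lay below those at 15 weeks in all 6 arrays. These 6-week controls stood apart in a measure of RNA integrity described further on, with GAPDH ratios of 1.58, 2.48 and 3.99. Its part in their values was not tested.

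Per2 encodes a repressor at the core of the same clock, and its probe set lay in the opposite direction. It measured 585, 440, 568 and 593 at 3 weeks and 248, 182 and 263 at 15 weeks. All 3 late arrays were below all 4 early ones, and the change was -1.12 ± 0.22 (limma, adjusted p = 0.101), not called. The hour of collection is not labelled. Changes of Nr1d1 and Per2 between the ages therefore cannot be told apart from a difference in that hour. The promoters of both genes are shown because they carry the elements through which the clock is known to act, with the element in capitals: the E-box CACGTG in Nr1d1 and the D-box TTATGTAA in Per2.
Nr1d1: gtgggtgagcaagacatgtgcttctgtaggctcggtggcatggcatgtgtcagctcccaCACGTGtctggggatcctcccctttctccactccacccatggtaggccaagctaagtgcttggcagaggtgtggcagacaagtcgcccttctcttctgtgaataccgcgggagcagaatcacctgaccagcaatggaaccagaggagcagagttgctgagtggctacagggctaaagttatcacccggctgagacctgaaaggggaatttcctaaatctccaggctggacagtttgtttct
Per2: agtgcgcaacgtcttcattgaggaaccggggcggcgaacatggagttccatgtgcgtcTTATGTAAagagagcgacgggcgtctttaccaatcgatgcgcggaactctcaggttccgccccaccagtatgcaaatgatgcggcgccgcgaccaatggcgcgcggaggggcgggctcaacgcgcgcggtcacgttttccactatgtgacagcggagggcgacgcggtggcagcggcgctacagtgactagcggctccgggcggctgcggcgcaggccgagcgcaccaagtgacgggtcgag
Both are RefSeq promoters of build GRCr8 on the minus strand, chr10:84229405-84229704 for one of the 2 listed starts of Nr1d1 and chr9:99496944-99497243 for Per2. The other start listed for Nr1d1 has none of the motifs searched in its window. Each window runs from 250 bases before the start to 50 after it, and the first base of the element lies at -191 in Nr1d1 and at -192 in Per2.

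Both strands were searched for the exact letters given, so variant forms of an element were not counted. The 8 clock genes had 9 promoters, and a gene was counted if any of its promoters held the letters. The E-box CACGTG was found in the promoters of 4 of the 8 clock genes that had one (Bhlhe40, Bhlhe41, Nr1d1 and Tef), against 6.42% of the 33469 promoters of the same length. The D-box TTATGTAA was found in 1 of the 8, Per2, against 0.893% of all promoters. The letters AGGTCA, the core of the element that NR1D1 binds, were found in 2 of the 8, Bmal1 and Nr1d2, against 16.2%. A match of letters is a description of the window and does not show that a factor binds there.

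The other clock genes were not called. Dbp, which encodes a D-box activator, measured 1277, 640, 1819 and 1224 at 3 weeks and 1310, 1449 and 1714 at 15 weeks. The groups overlapped, with control array 2 low at 3 weeks, and the change was 0.34 ± 0.52 with a 95% interval from -0.74 to 1.41. Changes were -0.12 ± 0.29 for Nr1d2, the paralog of Nr1d1, -0.01 ± 0.20 for Tef, 0.10 ± 0.33 for Hlf, 0.23 ± 0.22 for Bhlhe40 and 0.12 ± 0.26 for Bhlhe41, the last 2 encoding repressors of clock targets. Bmal1, the activator that NR1D1 represses, measured at most 23.2 at 3 weeks and at most 42.3 at 15 weeks, near the low end of the scale (0.33 ± 0.45). Of the 9 clock genes, 1 was called higher and none lower, with a median change of 0.12 against 0.02 over all 3826 genes tested.

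The high salt hearts share no array with the non-salt ones, and there Nr1d1 went the other way. It measured 1240, 1287 and 1243 at 3 weeks and 463, 431 and 565 at 15 weeks, with no overlap. It fell by 1.31 ± 0.29 (limma, adjusted p = 0.00694), and the 2 changes differed by -3.23 ± 0.40 (limma, adjusted p = 6.47e-05, 95% interval from -4.06 to -2.39). Dbp fell in high salt hearts from 1501, 1566 and 1117 to 295, 46.8 and 144 (-3.02 ± 0.55, adjusted p = 0.00125), and its change differed from the non-salt one by -3.36 ± 0.76 (limma, adjusted p = 0.0157). Per2 was at 282, 325 and 204 and then at 223, 169 and 144 in high salt hearts, and its 2 changes did not differ at the threshold (0.62 ± 0.33, adjusted p = 0.468, 95% interval from -0.06 to 1.29). In all, 4 of the 9 clock genes fell in high salt hearts and 4 differed from the non-salt change, where 3.45% and 2.38% of all genes tested did. These differences with salt, too, cannot be told apart from differences in the hour of collection, which is not labelled.

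**Figure D1:**
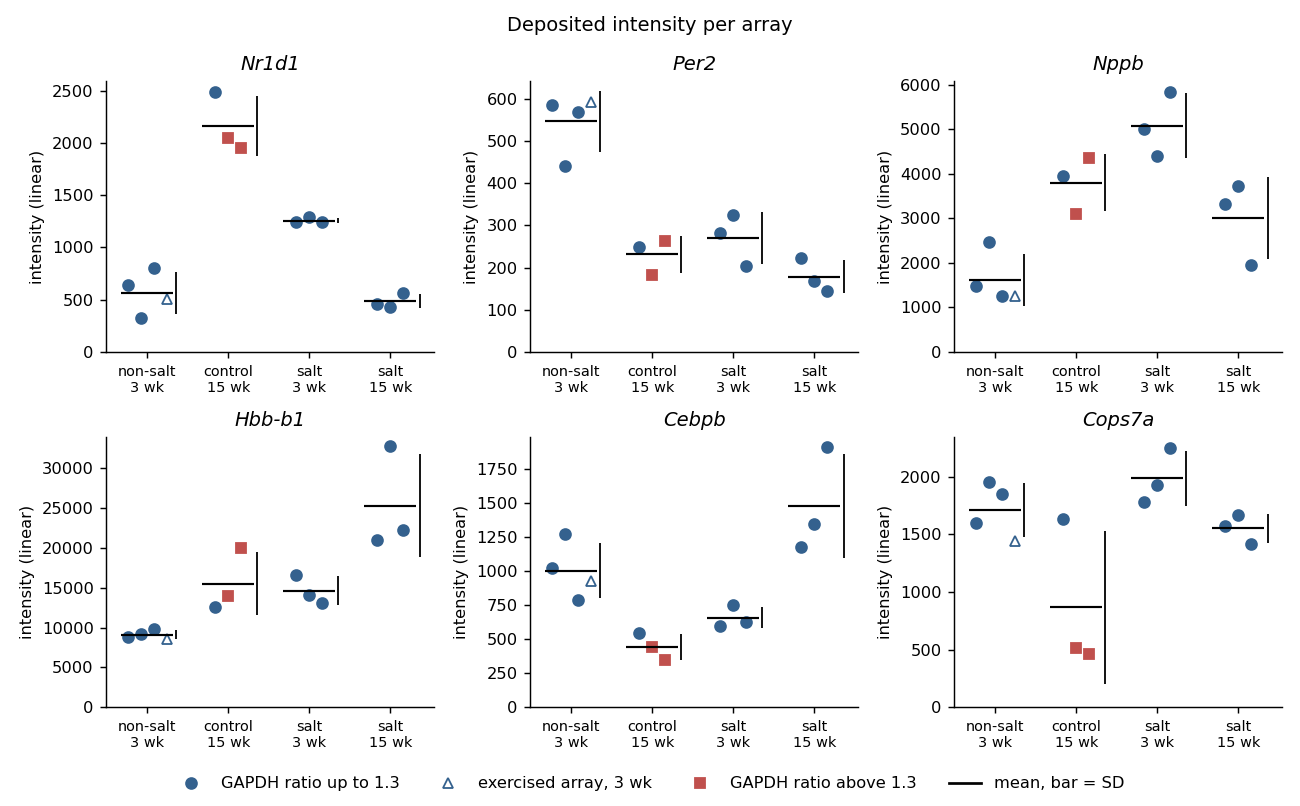
Deposited intensity (linear, from 0) of 6 probe sets in each non-salt array of 3 weeks (4 arrays) and 15 weeks (3 arrays) and each high salt array of 3 and 15 weeks (3 each). Points are arrays, squares mark a GAPDH 3'/5' ratio above 1.3, the open triangle is the exercised array, lines are means and bars 1 SD. Nr1d1 is highest in the 15-week control arrays, and Cops7a is low only in the 2 of them drawn as squares.

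Apart from Nr1d1, the genes with the smallest p-values are given as values. Nppb encodes brain natriuretic peptide, which the ventricle releases when stretched. It measured 1479, 2458, 1265 and 1249 at 3 weeks and 3953, 3095 and 4348 at 15 weeks. The lowest late array was above the highest early one, with a change of 1.26 ± 0.27 (limma, adjusted p = 0.116, 95% interval from 0.70 to 1.82). In high salt hearts it was already at 4992, 4392 and 5839 at 3 weeks and at 3314, 3723 and 1959 at 15 weeks, and the changes differed by -2.05 ± 0.39 (limma, adjusted p = 0.00458). Nppa, the atrial peptide gene that ventricles re-express under load, did not separate the ages: it measured 2806, 2847, 3657 and 6819 at 3 weeks, highest in the exercise array, and 3115, 4937 and 5466 at 15 weeks (0.22 ± 0.31, 95% interval from -0.42 to 0.86).

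Probe sets of hemoglobin chains lay higher at 15 weeks. Hbb-b1 measured 8858, 9182, 9842 and 8549 at 3 weeks and 12606, 13926 and 19990 at 15 weeks, with no overlap and a change of 0.74 ± 0.17 (limma, adjusted p = 0.157). Hbb was 0.58 ± 0.15 and Hba-a3 0.79 ± 0.20 higher, neither called, and probe sets of such near-identical genes can share signal. Under quantile normalization, which forces 1 distribution on all arrays, the changes were 0.58 for Hbb-b1, 0.35 for Hbb and 0.83 for Hba-a3. In high salt hearts Hbb-b1 rose by nearly the same amount, 0.77 ± 0.18 (limma, adjusted p = 0.0118), and the changes differed by 0.03 ± 0.25 with a 95% interval from -0.49 to 0.55. Other genes of red cells did not move alike in non-salt hearts. Alas2, the first enzyme of erythroid heme synthesis, was 0.07 ± 0.22 higher, and Slc4a1, the red cell anion exchanger, measured 510, 613, 498 and 594 at 3 weeks and 419, 429 and 442 at 15 weeks (-0.33 ± 0.17, not called). Tfrc, the transferrin receptor, measured between 111 and 184 and then between 38.3 and 108 (-0.63 ± 0.26, not called). The summed intensity of the 6 red cell markers on the array ran from 22934 to 26319 at 3 weeks and from 31461 to 45053 at 15 weeks, and no marker was at 0. Most of this sum came from Hbb-b1 and Hbb (11803 to 14392 and then 16885 to 22774), so it is not a separate measure. The part of blood content in these values was not tested.

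The remaining genes with the smallest p-values on the higher side had roles apart from each other. Maoa, a mitochondrial enzyme that breaks down monoamines, measured 1545, 1078, 1474 and 1223 at 3 weeks and 2012, 2497 and 2894 at 15 weeks (0.87 ± 0.22, adjusted p = 0.235), and in high salt hearts it rose by 1.06 ± 0.24 (limma, adjusted p = 0.00674). Ankrd1, a stretch-responsive protein of the sarcomere and nucleus, measured between 8833 and 12124 and then between 15834 and 17491 (0.71 ± 0.18). Its change was 0.54 under quantile normalization. Sctr, the secretin receptor, measured between 145 and 210 and then between 422 and 499 (1.27 ± 0.31). Gzmk, a granzyme of cytotoxic lymphocytes, measured between 27.9 and 34.1 and then between 95.2 and 131 (1.11 ± 0.25), near the low end of the scale. Lox, which cross-links collagen and elastin, was 1.27 ± 0.32 higher by a probe set that measured at most 55.4 at 3 weeks, but its brightest probe set overlapped between the ages (0.39 ± 0.26).

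On the lower side, the genes with the smallest p-values fell into 2 kinds according to 15-week control array 1. The first kind was low in all 3 late arrays. Cebpb, a transcription factor of inflammatory and metabolic genes, measured 1025, 1270, 788 and 931 at 3 weeks and 544, 443 and 350 at 15 weeks by its brightest probe set (-1.10 ± 0.24, adjusted p = 0.116), and -1.67 ± 0.32 by a second one (adjusted p = 0.0981). In high salt hearts the brightest probe set rose from 600, 749 and 629 to 1179, 1350 and 1910 (1.10 ± 0.25, adjusted p = 0.00914), and the changes differed by 2.20 ± 0.35 (limma, adjusted p = 0.000755). Glul, glutamine synthetase, measured 1285, 1804, 1487 and 1260 at 3 weeks and 824, 919 and 616 at 15 weeks (-0.86 ± 0.24, adjusted p = 0.305). It rose in high salt hearts (1.68 ± 0.26, adjusted p = 0.0002), a difference of 2.54 ± 0.35 (limma, adjusted p = 0.000202). Its brightest probe set overlapped between the ages in non-salt hearts (-0.48 ± 0.20).

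Kif1c, a kinesin motor, measured 140, 191, 201 and 60.5 at 3 weeks, lowest in the exercise array, and 39.7, 35.6 and 41.9 at 15 weeks (-1.17 ± 0.27, adjusted p = 0.157). Without the exercise array it was called (-1.45, adjusted p = 0.0121). Atp1b1, the beta subunit of the sodium pump, measured 1578, 1704, 1731 and 1674 and then 822, 637 and 843 by 1 probe set (-1.09 ± 0.23, adjusted p = 0.101), but its brightest probe set did not separate the ages (-0.07 ± 0.18), so the probe sets of this gene disagree. Cbr1, a carbonyl reductase, had a change of -0.65 ± 0.18 and Nup50, a nuclear pore protein, one of -0.77 ± 0.21, both with no overlap and not called.

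The second kind was low only in 15-week control arrays 2 and 3. Cops7a, a subunit of the COP9 signalosome, measured 1599, 1956, 1853 and 1444 at 3 weeks and 1636, 516 and 460 at 15 weeks (-1.17 ± 0.29). Nptn, a cell adhesion protein, measured 270, 543, 514 and 142 and then 313, 17.2 and 24.8 (-1.75 ± 0.46). Array 1 lay inside the 3-week range for both, while arrays 2 and 3 lay below it. Hand2, a transcription factor of heart development, stood between the kinds, with 594, 782, 468 and 444 at 3 weeks and 416, 196 and 129 at 15 weeks (-1.19 ± 0.28).

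The array carries a measure of RNA integrity that divided the late arrays in the same way. The manufacturer's control probe sets read the 3' and the 5' end of the GAPDH transcript, and their ratio rises when the 5' end is underrepresented. The ratio was 1.10, 1.06, 1.05 and 1.18 in the 3-week arrays and 1.09, 1.52 and 1.58 in 15-week control arrays 1, 2 and 3. The means were 1.10 ± 0.06 (SD, n = 4) and 1.40 ± 0.27 (SD, n = 3), an exact two-sided permutation p of 0.1714, where 4 arrays against 3 cannot go below 0.0571. The ratio of the high salt arrays of both ages lay between 0.994 and 1.16. It was largest in the 6-week control arrays, 1.58, 2.48 and 3.99, against 0.989, 1.12 and 1.03 in the 6-week exercise arrays. The beta-actin ratio overlapped between the ages (1.18 to 1.32 and 1.14 to 1.56), as did that of hexokinase (1.93 to 3.16 and 2.02 to 3.02).

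The differences of arrays 2 and 3 from the 3-week arrays were set beside the difference between the 6-week controls, whose GAPDH ratios were high, and the 6-week exercise arrays. Over the 6555 probe sets, Pearson's r between the 2 differences was -0.09 for array 1, 0.42 for array 2 and 0.40 for array 3, given as a description because probe sets are not independent and the 6-week difference is also one of training. Array 1 was also closest to the 3-week arrays, with a mean correlation of 0.9704 against 0.9581 and 0.9557. Among the 322 probe sets lower at an unadjusted p under 0.05, the median change was -0.34 in array 1 against -0.80 and -0.82 in arrays 2 and 3, and array 1 lay below the whole 3-week range in 183 of them. Among the 190 higher ones the medians were 0.36, 0.62 and 0.58, and array 1 lay above the range in 134. Array 1 was part of the fit that picked these probe sets. Its place on the same side is thus partly fixed by that choice and is no separate support. The 6-week controls lay below the 6-week exercise arrays in 231 of the 322 lower ones, where 38.28% of all probe sets did. The part of RNA integrity in these changes was not tested.

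**Figure D2:**
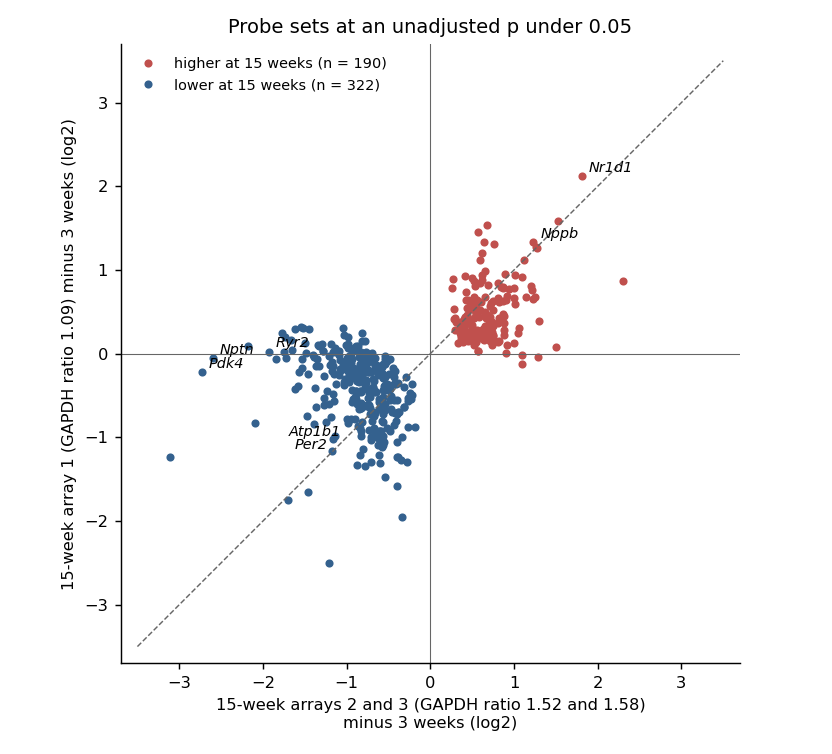
Each point is a probe set at an unadjusted p under 0.05: its log2 change from the 3-week mean in 15-week control array 1 (vertical) against that in arrays 2 and 3 (horizontal), with the line of equal change dashed. Red points (190) are higher and blue points (322) lower at 15 weeks; Nr1d1, Nppb and Per2 lie close to the line, whereas Pdk4, Nptn and Ryr2 lie near 0 in array 1.

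When array 1 was left out, 45 probe sets were called lower and 5 higher. In array 1 the 45 had a median change of -0.06, against -1.39 in arrays 2 and 3, and array 1 lay below the 3-week range in 10 of them. The fit that picked the 45 used arrays 2 and 3, so part of this gap is fixed by that choice. Of the 45, 42 were also lower in the 6-week control than in the 6-week exercise arrays, by a median of -1.37. Of the 108 probe sets tested of the oxidative phosphorylation and fatty acid lists, 6 were among the 45 (Acot2, Cs, Pdha1, Pdk4, Ucp2 and Vdac1), or 5.56% against 0.686% of all probe sets. Pdk4, which restrains pyruvate oxidation, measured 275, 1414, 443 and 356 at 3 weeks and 426, 56.9 and 29.6 at 15 weeks. Cs, citrate synthase, measured 920, 2037, 1607 and 1188 and then 1695, 360 and 493, and Acot2, a mitochondrial acyl-CoA thioesterase, 1275, 2730, 2120 and 1180 and then 1644, 448 and 450. In each of these 3 genes array 1 lay within the 3-week range.

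The same held for Ryr2, the calcium release channel (492, 1415, 1175 and 516, then 819, 143 and 232), for Prdx3, a mitochondrial peroxidase (2936 to 4786, then 4703, 1723 and 2202), and for Casq2, the calsequestrin of the heart (2602 to 3967, then 3804, 1617 and 1527), though Casq2 was not called. Gja1, which encodes connexin 43, was at 476, 129 and 169 at 15 weeks against 253 to 577, and was not called either. The 5 probe sets called higher without array 1 were those of Nr1d1, Hbb and Hbb-b1 and 2 that name several genes each.

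With array 1 as the single 15-week array, assumed to vary like the other groups, no probe set was called by limma and 249 had an unadjusted p under 0.05. Array 2 alone gave 5 calls and array 3 alone 30. The Nr1d1 change was 2.12 in array 1, 1.85 in array 2 and 1.78 in array 3, smaller where the ratio was higher. With the GAPDH ratio as a covariate in the fit of all arrays it was 2.13 (adjusted p = 0.000662), and Nppb (1.49, adjusted p = 0.0205) and Per2 (-1.31, adjusted p = 0.0153) were called as well. In a fit of the 7 non-salt arrays alone with the same covariate the Nr1d1 change was 2.12 but not called (adjusted p = 0.170).

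Genes of the contractile apparatus lay above their 3-week values on the deposited scale, with none called, but not after quantile normalization, which took their median from 0.31 to -0.01. Of 15 sarcomere genes, 8 did not overlap between the ages, all 8 higher, where 4.73% of the 3826 genes did not overlap on the higher side and 3.74% on the lower. Their median change was 0.31 against 0.02 over all genes, and it was 0.19 in array 1, 0.46 in array 2 and 0.29 in array 3. In high salt hearts the median of the same genes was 0.23, with none called.

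Myh7, the slow beta myosin heavy chain, measured 26611, 29071, 26869 and 26281 at 3 weeks and 37341, 40564 and 46313 at 15 weeks (0.60 ± 0.19, adjusted p = 0.369). A second probe set of Myh7 measured between 5533 and 9895 and then between 14501 and 20290 (1.03 ± 0.27, adjusted p = 0.255), and in high salt hearts this one rose (1.15 ± 0.29, adjusted p = 0.0157). The brightest probe set of Myh6, the fast alpha chain that dominates the adult rat ventricle, was 0.35 ± 0.16 higher with no overlap. The 2 chains lie close in sequence, and probe sets for one may bind the other. Myl2 was 0.44 ± 0.17 higher, Tpm1, alpha tropomyosin, 0.47 ± 0.19, and the troponins Tnni3 and Tnnt2 0.36 ± 0.16 and 0.32 ± 0.16, all without overlap and not called. Under quantile normalization the changes were 0.24 for the brightest probe set of Myh7, 0.89 for the second, -0.01 for Myh6, -0.0006 for Myl2, 0.13 for Tpm1, 0.04 for Tnni3 and 0.05 for Tnnt2. Acta1, the skeletal actin that young hearts express, was not apart: 6983 to 10188 at 3 weeks, 5996 to 9151 at 15 weeks, with a 95% interval of the change from -0.41 to 0.27. Atp2a2, the calcium pump of the sarcoplasmic reticulum, overlapped (0.27 ± 0.17, and -0.08 under quantile normalization).

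The 15 fetal and stress genes, among them the 2 natriuretic peptides, had a median of 0.21 (-0.01 under quantile normalization), with none called. Of these, 4 did not overlap and were higher, against 4.73% of all genes. Calcium handling genes (16, median -0.06), channels of potassium and sodium (11, median 0.19) and adrenergic and muscarinic signalling (15, median 0.07) had no call. Of the 15 adrenergic and muscarinic genes, 3 did not overlap and were lower, against 3.74% of all genes, and 1 was higher, against 4.73%. At an unadjusted p under 0.05, 5 were lower and none higher, where 154 and 109 of all 3826 genes were. In this list the 6-week controls lay below the 6-week exercise arrays by a median of -0.21, where the median over all genes was 0.15. Adcy6, an adenylyl cyclase of the ventricle, measured 660, 885, 530 and 994 at 3 weeks and 492, 506 and 468 at 15 weeks (-0.57 ± 0.23, not called).

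Transcription factors of the heart lay on the lower side. Of 8 tested, 4 did not overlap and were lower, against 3.74% of all genes, none was higher, and the median was -0.22, with -0.16 in array 1 and -0.24 and -0.30 in arrays 2 and 3. Gata6 measured 1551, 1703, 2046 and 1642 at 3 weeks and 1441, 848 and 1023 at 15 weeks (-0.66 ± 0.21, adjusted p = 0.37). Nkx2-5 measured 1241, 1443, 1200 and 1172 and then 1102, 1052 and 1017 (-0.25 ± 0.20), and Gata4 between 485 and 675 and then between 407 and 477 (-0.27 ± 0.20). All 3 lay low in array 1 as well. The 6-week controls, whose GAPDH ratios were high, lay below the 6-week exercise arrays in the same list by a median of -0.31, where the median over all genes was 0.15, and the part of RNA integrity was not tested. The 8 genes had a median of 0.05 in high salt hearts, none called.

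Energy metabolism gave small values on both sides. Of 38 genes of oxidative phosphorylation and the citric acid cycle, 7 did not overlap and were higher, against 4.73% of all genes, and none was lower in that sense. At an unadjusted p under 0.05, 4 were higher and 3 lower, with changes from -0.99 to 0.44. The median was 0.10 (0.06 in array 1), it was -0.05 under quantile normalization, and the 6-week controls lay below the 6-week exercise arrays by -0.33. Atp5po, a stalk subunit of ATP synthase, measured 21386, 19225, 19607 and 18231 at 3 weeks and 23073, 27266 and 28765 at 15 weeks (0.42 ± 0.15). Cox6a2 and Cox4i1, subunits of cytochrome oxidase, were 0.39 ± 0.16 and 0.44 ± 0.18 higher, none called. Fatty acid genes (26) had a median of -0.11, and the 6-week controls lay below the 6-week exercise arrays by -0.37. The median was 0.10 once the GAPDH ratio entered the fit as a covariate. In this list 2 genes were lower without overlap, against 3.74% of all genes, 1 of them Hadhb of the mitochondrial beta-oxidation complex (4949 to 7160, then 3876, 2101 and 3043, -1.01 ± 0.31). Ppara, the nuclear receptor for fatty acid genes, measured 57.3, 98.6, 97.4 and 94.2 and then 120, 176 and 157 (0.59 ± 0.22). Glucose transport and glycolysis genes (20) had a median of -0.06. Of these, 3 did not overlap and were lower, against 3.74% of all genes, and none was higher. At an unadjusted p under 0.05, 1 was lower and none higher. Slc2a1, the GLUT1 transporter, measured 924 to 1089 and then 745, 544 and 856 (-0.46 ± 0.19, not called), whereas it rose in high salt hearts from 431, 737 and 635 to 1168, 1039 and 1468 (limma, adjusted p = 0.00264), a difference of 1.45 ± 0.27 (limma, adjusted p = 0.00453).

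**Figure D3:**
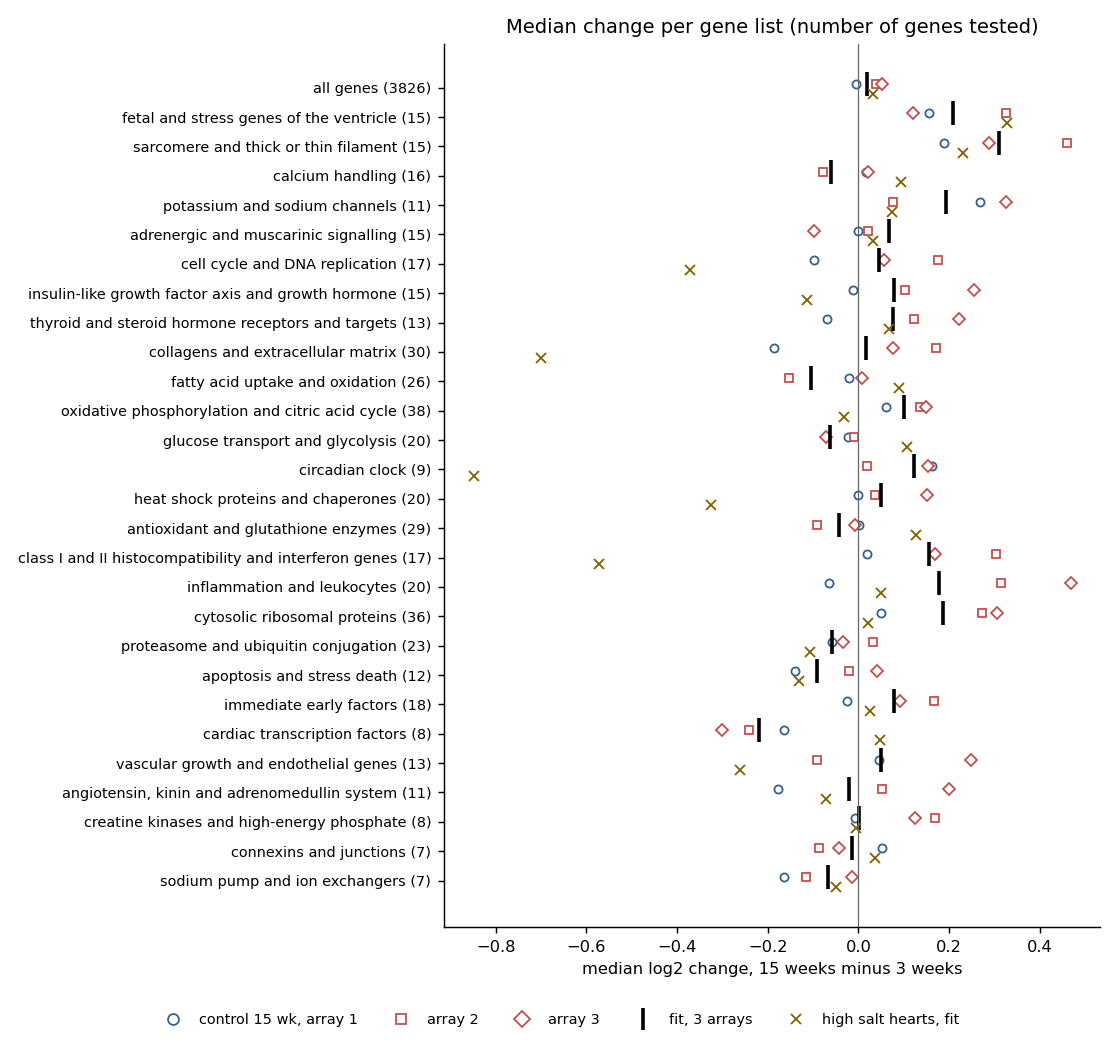
Median log2 change, 15 weeks minus 3 weeks, of each gene list (number of genes tested in brackets) in non-salt hearts: black bars for the fit of 3 arrays, open symbols for each 15-week control array against the 3-week mean. Values are on the deposited scale; under quantile normalization the sarcomere median is -0.01, the fetal one -0.01 and that of oxidative phosphorylation -0.05. Crosses are the medians in high salt hearts; the matrix and clock lists lie at -0.70 and -0.85 there and at 0.02 and 0.12 in non-salt hearts.

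No gene of the growth factor axis or the cell cycle was called. Igf1 measured 396, 339, 543 and 447 at 3 weeks and 379, 555 and 516 at 15 weeks, and Igf2, the fetal growth factor, 752, 710, 738 and 733 and then 676, 726 and 839. The 95% intervals of their changes ran from -0.34 to 0.64 and from -0.40 to 0.44. Ghr, the growth hormone receptor, lay 0.29 ± 0.19 higher without overlap. The 15 genes of this axis had a median of 0.08, and the 17 genes of the cell cycle one of 0.05. Top2a, a topoisomerase of dividing cells, measured 237, 152, 155 and 160 and then 220, 240 and 221 (0.32 ± 0.25). In high salt hearts it fell (-1.24 ± 0.26, adjusted p = 0.0046), as did Ccnd1, cyclin D1 (-2.33 ± 0.28, adjusted p = 1.32e-05), which was 0.23 ± 0.27 higher in non-salt hearts.

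Matrix genes showed no common change without salt and a large one with it. Without salt, 30 genes of collagens and matrix had a median of 0.02, with 1 not overlapping and higher and none lower, and the median was -0.19 in array 1 and 0.17 and 0.08 in arrays 2 and 3. Col1a1 measured 7473, 4446, 7371 and 7037 at 3 weeks and 5318, 9196 and 6821 at 15 weeks, and Col3a1 7267, 3743, 6259 and 6608 and then 4222, 5936 and 5633. Both overlapped, with control array 2 lowest at 3 weeks, and the 95% intervals ran from -0.46 to 0.67 and from -0.78 to 0.47. Col1a2 was at 2154 to 3382 and then at 1688 to 2484 (-0.38 ± 0.25). Eln, elastin, was the 1 gene higher without overlap (769, 553, 660 and 800, then 1121, 1219 and 995, 0.66 ± 0.22, not called).

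In high salt hearts Col3a1 fell from 7912, 8436 and 7807 to 330, 527 and 1210 (-3.66 ± 0.32, adjusted p = 2.11e-07), which differed from the non-salt change by -3.51 ± 0.44 (limma, adjusted p = 6.73e-05). The median of the 30 genes there was -0.70, with 14 called lower and 1 higher, where 3.45% and 2.59% of all genes were called. For 10 of the 30 the 2 changes differed, against 2.38% of all genes. The fibroblast markers share Col1a1, Col1a2 and Col3a1 with the matrix list, so their sum is not a separate measure. The summed intensity of the 11 markers was 32439 to 39141 and then 12102 to 22698 in high salt hearts. In non-salt hearts it was 26647 to 35699 and then 26569 to 35924. With salt, 5 of the 11 were called lower and none higher. Pdgfra overlapped (421 to 687, then 418 to 651), and S100a4 measured 528 to 676 and then 600 to 1065. No fibroblast marker was at 0, and the part of cell content in the gap was not tested.

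Of 36 cytosolic ribosomal protein genes, 8 did not overlap and were higher, against 4.73% of all genes, and none was lower, against 3.74%. Their median was 0.19. This group leaned on arrays 2 and 3, whose medians were 0.27 and 0.30 against 0.05 in array 1. The 6-week control arrays lay 0.24 above the 6-week exercise arrays, where the median over all genes was 0.15. Rpl23 measured 7385 to 8258 and then 8937, 11853 and 12325 (0.47 ± 0.15). Inflammation and leukocyte genes (20) also leaned on arrays 2 and 3, with a median of 0.18 that was -0.07 in array 1 and 0.32 and 0.47 in arrays 2 and 3. Their 6-week difference was 0.15, the same as over all genes. S100a9, a calcium-binding protein of neutrophils, measured at most 29.2 at 3 weeks and 39.2, 106 and 114 at 15 weeks (limma, adjusted p = 0.392), and the summed leukocyte markers overlapped (4926 to 5646 and 5168 to 5484).

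Heat shock genes (20) had a median of 0.05 with none called. Hspa1a measured 786, 810, 725 and 286 at 3 weeks, lowest in the exercise array, and 444, 170 and 172 at 15 weeks (-1.22 ± 0.35, adjusted p = 0.305). It fell in high salt hearts (-1.87 ± 0.37, adjusted p = 0.0024). With the exercise array left out, probe sets shared by Hspa1a and Hspa1b were called lower in non-salt hearts. Their changes were -2.28, -2.02 and -3.11 (limma, adjusted p = 0.018, 0.018 and 0.00946). The antioxidant (29, median -0.04), histocompatibility and interferon (17, 0.16), proteasome (23, -0.06), vascular (13, 0.05), hormone receptor (13, 0.08), immediate early (18, 0.08), apoptosis (12, -0.09), angiotensin and kinin (11, -0.02), creatine kinase (8, 0.00), connexin (7, -0.01) and sodium pump (7, -0.07) lists had no call either.

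Across the whole array, high salt hearts had 163 probe sets called higher and 222 lower from 3 to 15 weeks, 2.49% and 3.39% of those tested. Of these 385, 143 also differed from the non-salt change, and 204 had the same sign there. In the direction of the call the median change of the 385 was 1.15 with salt and 0.02 without. The difference between the diets was called for 157 probe sets, 60 higher in high salt (0.915%) and 97 lower (1.48%). Read from the non-salt side, 106 of the 190 higher probe sets were above 0 in high salt hearts, 55.79% where 53.41% of all probe sets were, and 203 of the 322 lower ones, 63.04%, were below 0.

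The genes with the smallest p for that difference, beside Nr1d1, Col3a1 and Glul, were Alox15, Slc4a1, Nmrk2, Actb and Col1a1. Alox15, a lipoxygenase of macrophages and eosinophils, measured 410 to 562 at 3 weeks and 411 to 463 at 15 weeks without salt, and rose with salt from between 348 and 626 to between 6272 and 7458 (difference 3.86 ± 0.27, limma adjusted p = 7.29e-09). Slc4a1 differed by 2.29 ± 0.25 and Nmrk2, a nicotinamide riboside kinase of muscle, by -2.81 ± 0.34. Actb, beta actin, was 0.48 ± 0.19 higher in non-salt hearts (6493 to 10146, then 9097 to 12519) and fell in high salt hearts, a difference of -1.97 ± 0.27. A second probe set of Col1a1 differed by -2.62 ± 0.38. With both 15-week control arrays of higher GAPDH ratio left out, the count of probe sets that differed was 35 in place of 157.

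**Figure D4:**
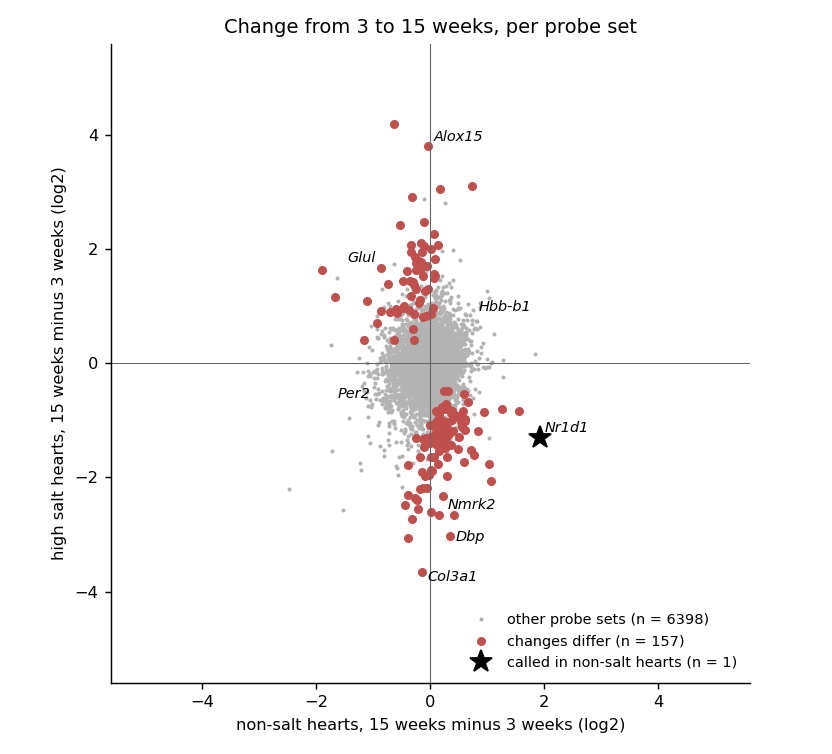
Log2 change from 3 to 15 weeks of each of the 6555 probe sets in non-salt (horizontal) and high salt hearts (vertical). Red points are the probe sets whose 2 changes differ (157, the star included) and the star is Nr1d1, the 1 probe set called in non-salt hearts; most red points lie near 0 on the horizontal axis and far from 0 on the vertical one.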

How the data were processed

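The authors deposited 1 table of linear intensity values for 8799 probe sets in 24 columns; how they computed and scaled the signals is not given in the sources used here. With 2% trimmed at each end, column means ran from 500.8 to 501.0, so the columns share 1 scale. No detection calls were used. Symbols came from the platform annotation: 7018 probe sets had 1, 308 several and 1473 none. Apart from probe sets shared by Hspa1a and Hspa1b, no gene was named from several.

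After removal of 59 control probe sets, log2(intensity + 40) was fitted with limma 3.58.1 in R 4.3.3 over 22 arrays in 7 groups (15 residual degrees of freedom, intensity trend, Benjamini-Hochberg). Probe sets with a mean in the lowest 25% were not tested. The script was tested on simulated data. The number of arrays limits the precision.

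Genes were named by a written rule: the 10 smallest p per direction where under 5 were called, up to 4 per list, 12 fixed genes and 8 for the difference between diets. Slc4a1, Alas2 and Tfrc among red cell markers and all clock genes were added from their lists. The arrays and lists were chosen with earlier results of these data known. The same-numbered arrays of the 2 ages did not pair (correlations of deviations from -0.196 to 0.043). Alternatives covered pseudocount, filter, normalization, array weights, covariates and single arrays.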

Additional observations from a re-analysis of the deposited data

Results flagged for a closer look

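For 7 of the 98 probe sets named, 1 of the 4 arrays of 3 weeks stood apart from the other 3 by Dixon's criterion, which chance passes in about 1 of 20 groups. Control array 2 was the one apart for Per2 (439.9), the brightest probe set of Col1a1 (4446) and Pdk4 (1414). Control array 1 was apart for Top2a (237), Ppara (57.3) and Tnnt2 (25263), and the exercise array for Hspa1a (286).

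The change from 3 to 15 weeks differed between high salt and non-salt hearts for 157 probe sets, 28 of them among those named, by the interaction term of limma's fit. The values here are the high salt change minus the non-salt change in log2 units. Among clock genes they were -3.23 and -2.37 for the 2 probe sets of Nr1d1, -3.36 for Dbp, -1.55 for Bhlhe41 and -1.24 for Bhlhe40. Matrix genes gave -3.51 for Col3a1, -1.93 for Col1a2, -1.53 and -2.61 for 2 probe sets of Col1a1 and -1.32 for Eln.

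Nppb gave -2.05, Nmrk2 -2.81, Actb -1.97, Ccnd1 -2.56, Top2a -1.56 and Cd74, the invariant chain of class II molecules, -1.06. On the positive side were Cebpb (2.85 and 2.2 for 2 probe sets), Glul (2.54 and 1.93), Kif1c (1.58), Slc2a1 (1.45), Pdk4 (3.54) and Cpt1a (0.9), which encodes the liver form of carnitine palmitoyltransferase. Alox15 gave 3.86, Slc4a1 2.29, Alas2, the heme synthesis enzyme, 1.75 and Ncam1, a neural cell adhesion molecule, 2.38. Pdk4 and both probe sets of Cebpb also belonged to the 45 called lower in non-salt hearts without 15-week control array 1.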

How the results depend on the processing

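For non-salt hearts the count of called probe sets was 1 as reported and also 1 under another pseudocount (10 or 100), filter or normalization, without the intensity trend, and with the columns as deposited. A covariate gave 3 calls (GAPDH ratio) or 2 (beta-actin ratio), and array weights gave 10. It was 3 with only the arrays of the 2 groups and 7 without the 6-week controls. With a single late array it was 0 for array 1 (249 at an unadjusted p under 0.05), 5 for array 2 and 30 for array 3. Leaving out 1 array at a time gave 1 to 50 calls, with 50 without 15-week control array 1, 5 without the exercise array and 2 without 3-week control array 2. The cause of these shifts was not tested. A replicate block gave 2 calls, both of Nr1d1, but the numbers did not pair the arrays.

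Nr1d1 kept its direction under every alternative run, with changes from 1.70 to 2.13, and missed the threshold with each single late array and with the GAPDH covariate in the 7 arrays (1 call there, of another probe set). High salt hearts gave 385 calls, 1072 with array weights and 238 to 347 with 1 array left out, the lowest being 238 without high salt 3-week array 1 and 255 without array 2. The difference between diets gave 157, 498 with array weights and 99 to 177 with 1 array left out. It was 99 without 15-week control array 2, 101 without 3-week control array 2 and 104 without high salt 3-week array 3. With both 15-week controls of higher GAPDH ratio left out, chosen after the ratios were seen, it was 35.

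Of 2341 values of 98 named probe sets under alternatives, 73 had the opposite sign. All but 1 of these were smaller than their standard error in one of the fits. The exception was Casq2 with the GAPDH covariate in the 7 arrays (0.21, against -0.61 as reported). Of 888 list medians under alternatives, 87 moved by more than the spread between arrays. Quantile normalization, which forces 1 distribution on all arrays, moved 6, among them the sarcomere, ventricular myocyte, fetal and oxidative phosphorylation lists to between -0.05 and -0.01. Limits: 3 or 4 arrays a group with a median standard error of 0.24 leave small changes undetected, no detection call marks dim probe sets, 1 early array came from an exercised rat and 2 may have.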
